A study of Arabidopsis thaliana with 16 samples.

Results

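The genes described here encode proteins of the large (60S) subunit of the cytosolic ribosome of Arabidopsis thaliana. A list of 60 loci in 26 protein families was searched for probe sets that the array annotation pairs with that gene alone. Such a probe set was found for 40 genes in 19 families, and each of the 40 had exactly 1. Of the other 20 genes, 4 were covered only by 2 probe sets shared between paralogues (RPL6B with RPL6C, and RPL32A with RPL32B), and 16 had no probe set in the annotation used. The study as a whole gave 13286 loci with a probe set of their own. Gene names follow the usual Arabidopsis ribosomal protein nomenclature, because the annotation lists most of these genes by locus only.

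Seedlings of the accession Landsberg erecta (stock N1642) germinated from stratified seed on MS agar without sucrose. A light pulse (100 µmol m-2 s-1 for 30 min) preceded 3 dark days at 21 °C, after which white light was given. RNA came from dissected shoot apex, meaning the meristem region between the bases of the cotyledons, or from cotyledon with the petiole end and the tip removed, and was hybridised to 16 Affymetrix ATH1 arrays. Dark seedlings and those given 1 h or 6 h of light had 2 arrays per tissue. Single arrays of the apex covered 2, 24, 48 and 72 h. A sample was a pool of plants drawn from several plates and experiments, with about 1500 seedlings at 72 h and over 4000 in the dark. The apex samples of 48 and 72 h included developing leaf primordia. No group was kept dark for longer, so the time in light and the age of the seedling cannot be told apart, and in dissected tissue fewer cells of a type and less RNA per cell cannot be told apart either. Nothing in the labels says that the 2 arrays of a group came from separate pools of plants, so p-values measure the spread between these arrays, which may be technical.

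The 60S subunit carries the peptidyl transferase centre, built of ribosomal RNA, and its proteins stabilise that RNA, line the tunnel through which the new polypeptide leaves, form the flexible stalks that work with tRNAs and elongation factors, and touch the small subunit. In plants almost every ribosomal protein is encoded by a small family of paralogues, whose members can stand in for one another in part and differ in expression between tissues. Making ribosomes is a large expense for a growing cell, and young dividing tissue is rich in transcripts of ribosomal proteins. The comparisons ask whether these transcripts changed with light in each tissue, and whether the paralogues of a family moved together.

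Values are MAS5 signals, an intensity in arbitrary units that had been scaled to the same trimmed mean on every array, and all changes are differences of mean log2 signal with the standard error from limma. A gene was called at a Benjamini-Hochberg adjusted p under 0.05 over all 18237 tested probe sets. All 40 genes were above their array's 35th percentile on every array, so none had only a bound. Signals of different probe sets are not comparable as levels, so genes are compared by their changes only. Paralogues are close in sequence, and how much of a probe set's signal came from another member of its family was not tested.

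The replicate arrays correlated between 0.883 and 0.926 over tested probe sets. The control probe sets for the 3′ and the 5′ end of GAPDH, a measure of RNA integrity, gave ratios between 0.832 and 5.40. The ratio was 0.899 and 1.78 in the dark apex, 0.832 and 1.85 at 1 h, and 1.45 and 5.40 at 6 h. In the cotyledon it lay between 1.73 and 4.72. The same ratio for actin was 7.13 and 12.6 in the dark apex, 7.70 and 14.1 at 1 h, 9.87 and 30.4 at 6 h and 5.20 to 8.21 in late light, and in the cotyledon 7.15 and 6.71 in the dark and 12.0 and 14.2 at 6 h. The lowest of these correlations were those of the 6 h apex (0.883) and the dark apex (0.896). Earlier results of these data had dark apex replicate 2 and apex 6 h replicate 2 stand apart from their partners. Counts that moved when both were left out are given with the results or in the closing sections. The tissue labels could be checked against few markers, because only 3 of 12 apex markers and 1 of 8 cotyledon reserve markers had a probe set of their own. CLV3, the signal peptide of the stem cell niche, lay between 4 and 33 signal units in the apex and between 2 and 5 in the cotyledon, and it was not called between the tissues in either contrast. It was below the 35th percentile on every cotyledon array. In the apex it was below on both dark arrays, both 1 h arrays, 6 h replicate 1 and the 72 h array. The apex marker LAS overlapped in the dark, at 33.2 and 63.4 in the apex and 48.6 and 30.2 in the cotyledon. At 6 h it gave 43.7 and 35.8 against 19.4 and 20.4, and it was not called either. The third, UFO, was below the 35th percentile on every array. ICL, the isocitrate lyase that turns stored lipid into sugar, gave 3667 and 3986 in the dark apex against 8523 and 8720 in the dark cotyledon. By 6 h of light ICL fell by 1.85 in the apex and fell by 2.00 in the cotyledon on the log2 scale, and its change from the dark apex to late light was -4.04.

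The summed signal of the 40 genes was higher in the apex from 1 to 6 h of light than in the dark or in late light. It made up 1.36% and 1.26% of all signal on the dark apex arrays, 1.91% and 2.25% at 1 h, 1.99% at 2 h, and 2.34% and 2.82% at 6 h. At 24, 48 and 72 h it was 1.39%, 1.47% and 1.58%. Every apex array from 1 to 6 h thus lay above both dark arrays and above the 3 later arrays. In the cotyledon the share was 2.10% and 2.37% in the dark, 2.28% and 2.24% at 1 h, and 2.96% and 3.09% at 6 h. The share overlapped between dark and 1 h in this tissue, and both 6 h arrays were higher. The GAPDH and actin ratios were also highest on the apex array with the highest share in that tissue (6 h replicate 2), and the actin ratio was higher at 6 h than in the dark in the cotyledon and higher at 6 h than in late light in the apex. Their part in these results was not tested.

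**Figure D1:**
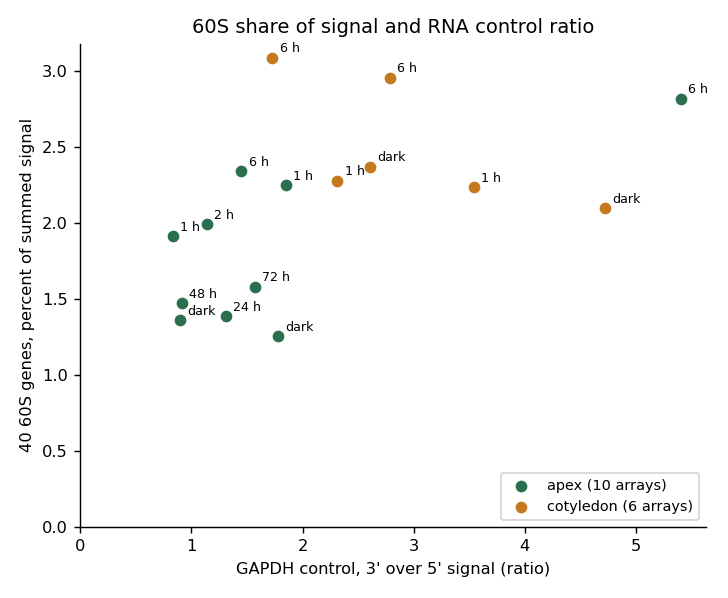
Summed signal of the 40 genes as a percentage of all signal on each array, plotted against the GAPDH 3′ to 5′ ratio of that array, with apex and cotyledon arrays in different colours and 1 point per array. The apex arrays of 1 to 6 h lie between 1.91% and 2.82%, above the dark apex arrays at 1.36% and 1.26%, and the array with the highest ratio (5.40) has the highest share of the apex arrays.

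After 1 h of light the apex already showed higher signals for 11 of the 40 genes and lower signals for 0, against 5.69% of all tested probe sets called higher and 5.13% called lower. The median change of the 40 genes was 0.70 on the log2 scale, while the median over all tested probe sets was -0.00. RPL19B (AT3G16780), a protein at the interface with the small subunit, rose from 164 and 108 in the dark to 332 and 472 at 1 h. That is a log2 change of 1.57 ± 0.38 (SE, 2 arrays against 2), with an adjusted p of 0.0167. RPL13aC (AT4G13170), of the family of the conserved protein uL13, rose from 218 and 213 to 453 and 693, by 1.38 ± 0.27 (adjusted p = 0.0047). For these 2 genes both 1 h arrays were above both dark arrays, as for 34 of the 40 genes and 28.3% of all tested probe sets. RPL34A (1.15), RPL14A (1.14), RPL13aA (1.13) and RPL10aC (1.08) came next, and the other 5 genes called were RPL4D, RPL12B, RPL22B, RPL28C and RPL7aA, with changes between 0.85 and 1.04. At the other end, RPL7D had -0.19, RPL18aC -0.17, RPL19C 0.12 and RPL26A 0.23, and none of these passed. The single array at 2 h was close to the 1 h arrays, with a median log2 difference from the dark apex of 0.67 against 0.54 and 0.86.

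These calls depended on single arrays. The count of 11 fell to 6 without apex 1 h replicate 1, 0 without replicate 2, 4 without dark apex replicate 1 and 2 without replicate 2, and it was 17 after quantile normalization, 7 after median centring, 2 without the intensity trend and 5 without both arrays that stood apart. The median change of the 40 genes stayed between 0.54 and 0.86 in all of these fits.

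At 6 h the rise in the apex was larger and more genes were called, while the change was above 0 for 38 genes at 1 h and 37 at 6 h. Of the 40 genes 30 were called higher and 0 lower, where 12.3% of all tested probe sets were higher and 12.9% lower. The median log2 change was 1.18, against -0.07 over all tested probe sets, and 36 genes had both 6 h arrays above both dark arrays, as 28.3% of all tested probe sets did. The changes ran from -0.52 to 2.57, so that members of one particle differed widely. Of the 30 calls, 13 were kept under every alternative that was run, namely those of RPL7B, RPL7aA, RPL10aC, RPL13aA, RPL13aC, RPL14A, RPL19B, RPL22B, RPL26B, RPL28C, RPL31B, RPL31C and RPL34A. Fewer genes were called without both arrays that stood apart. The median change of the 40 genes lay between 0.86 and 1.42 in all alternatives, which left out only arrays of groups with 2.

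**Figure D2:**
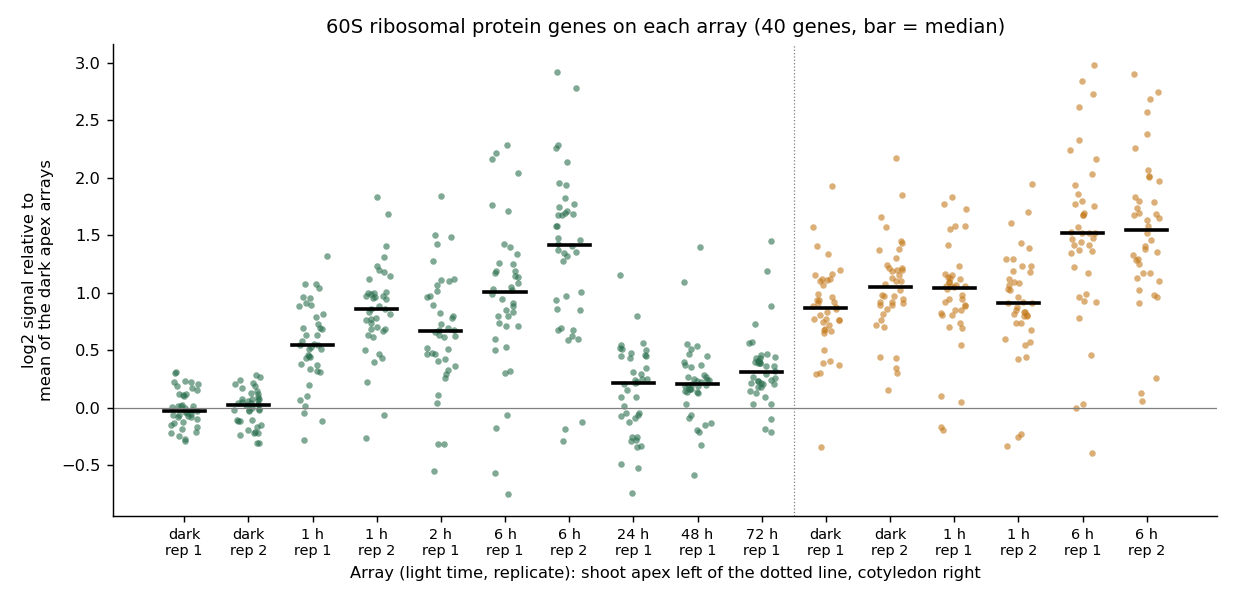
Log2 signal of each of the 40 genes relative to its mean on the dark apex arrays, with 1 point per gene, 1 column per array and a bar at the median. The apex medians are 0.54 and 0.86 at 1 h, 1.01 and 1.42 at 6 h and 0.21, 0.20 and 0.31 at 24, 48 and 72 h, while the cotyledon medians start at 0.86 and 1.05 in the dark and reach 1.52 and 1.55 at 6 h.

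RPL13aC showed the widest change. Its signals were 218 and 213 in the dark apex and 997 and 1630 at 6 h, which is 5.92-fold (log2 2.57 ± 0.27, adjusted p = 1.9e-05). Both 6 h arrays were far above the dark ones, and the 2 h array, at 773, lay between the 1 h and the 6 h arrays. RPL19B went from 164 and 108 to 593 and 911, a log2 change of 2.47 ± 0.38 (adjusted p = 0.00038). RPL14A (AT2G20450), a protein of archaea and eukaryotes that bacteria lack, went from 161 and 124 to 691 and 622, by 2.21 ± 0.23 (adjusted p = 2.0e-05). For all 3 genes both 6 h arrays were above both dark arrays.

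RPL10a forms the L1 stalk, which guides spent tRNAs out of the ribosome, and all 3 of its paralogues were called. RPL10aC (AT5G22440) had signals of 179 and 267 in the dark apex, 427 and 503 at 1 h, 589 at 2 h and 899 and 1045 at 6 h, a rise of 2.15 ± 0.23 by 6 h (adjusted p = 2.7e-05). RPL10aB (AT2G27530), known as PIGGYBACK1 for its part in leaf patterning, rose by 1.22 ± 0.25, and RPL10aA by 0.74 ± 0.26. The latter call was marginal, with an adjusted p of 0.0484, and was lost in 15 of 19 alternatives. RPL12, at the base of the other stalk where elongation factors bind, was called for all 3 paralogues, with changes of 1.01 (RPL12A), 1.51 (RPL12B) and 1.30 (RPL12C).

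RPL4, which lines the exit tunnel, was called for RPL4D (1.32 ± 0.31) and not for RPL4A (0.30 ± 0.28). RPL4A gave 1418 and 1416 in the dark apex and 1355 and 2262 at 6 h, so its arrays overlapped. Both RPL17 paralogues missed the threshold, with 0.62 for RPL17A and 0.55 for RPL17B. At the mouth of the tunnel, RPL26B was called (1.62 ± 0.25) and RPL26A was not (0.75 ± 0.29), and RPL31B (1.44) and RPL31C (1.51) were called while RPL31A (0.66) was not.

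Among the remaining families, both measured paralogues of RPL7a, RPL15 and RPL28 were called, with changes between 0.99 and 1.40. In the RPL7 family RPL7B (1.41) and RPL7C (1.15) were called and RPL7A (0.71) was not, and RPL14B, the paralogue of RPL14A, was not called either (0.59). All 4 RPL13a genes were called, from 1.04 for RPL13aD to 2.57 for RPL13aC. The genes measured alone in their family were RPL6A (1.14), RPL18C (0.96), RPL22B (1.57), RPL30B (1.21) and RPL34A, and all 5 were called. RPL34A (AT1G26880) had 666 and 660 in the dark apex and 2244 and 3219 at 6 h, a change of 2.02 ± 0.26 (adjusted p = 0.00010).

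Only 3 of the 40 genes had a change below 0 at 6 h in the apex, and none of the 3 was called. RPL7D (AT3G13580) gave 429 and 420 in the dark apex and 252 and 349 at 6 h (-0.52 ± 0.24, adjusted p = 0.13). RPL18aC (AT3G14600) gave 1552 and 1733 against 1105 and 1509 (-0.34 ± 0.26), and RPL19C (AT4G02230) gave 986 and 798 against 786 and 782 (-0.18 ± 0.22). In all 3 both 6 h arrays lay below both dark arrays, as 31.4% of all tested probe sets did. Each of the 3 has a paralogue on the array that was called higher. The size of the change did not follow brightness: the median was 1.22 in the 20 dimmer genes and 1.18 in the 20 brighter ones, and Pearson's r between mean log2 signal and change across the 40 genes, which share their arrays, was -0.11.

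**Figure D3:**
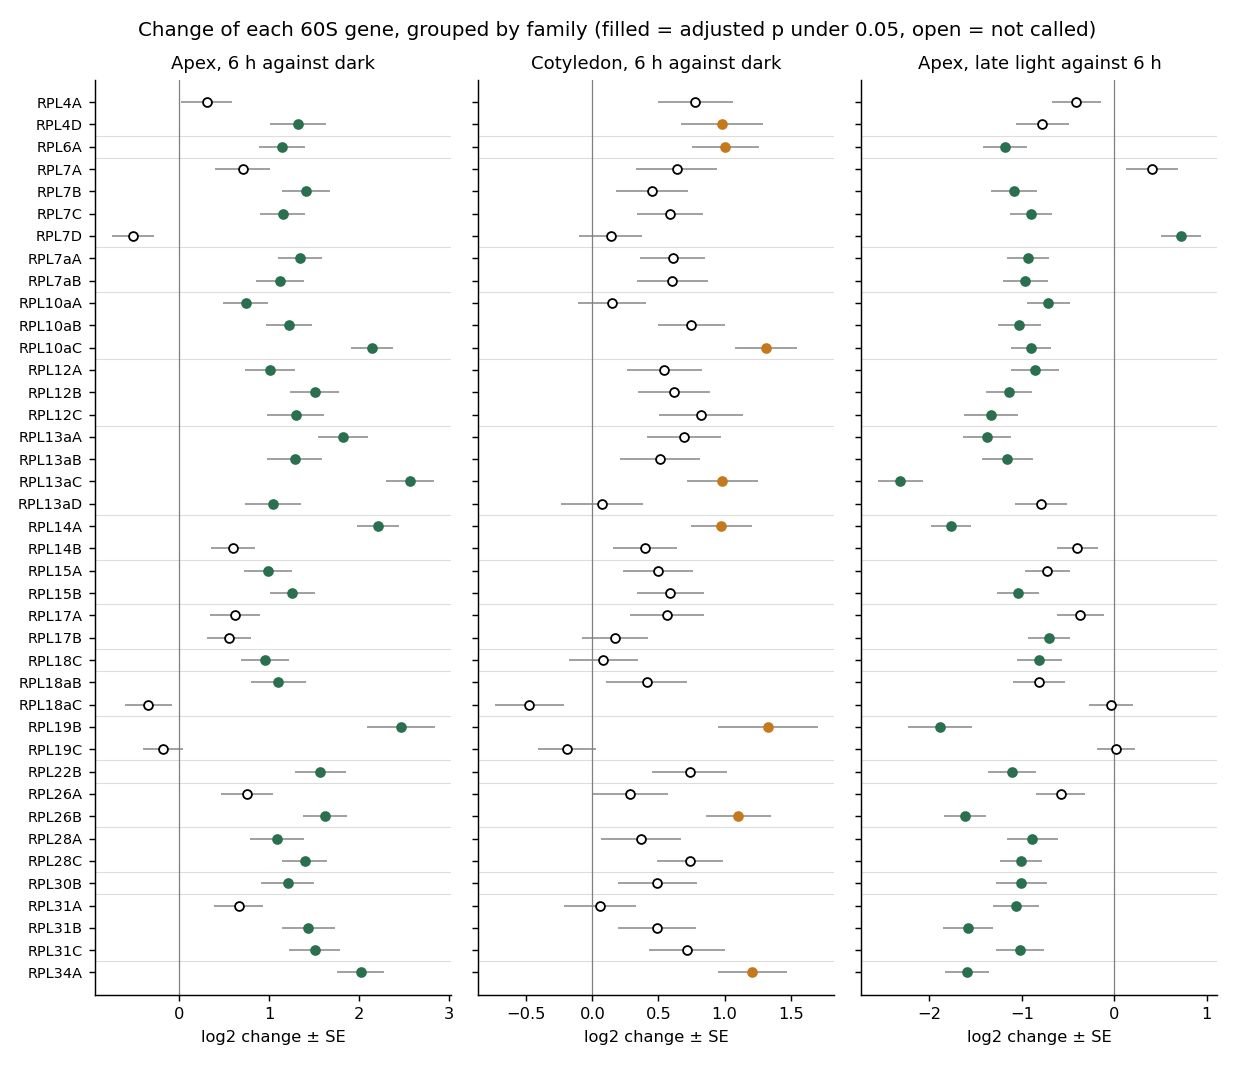
Log2 change of each of the 40 genes with its standard error, grouped by family, for 6 h against dark in the apex, 6 h against dark in the cotyledon and late light against 6 h in the apex, each on its own scale, with filled points for an adjusted p under 0.05 and open points for genes not called. RPL13aC (2.57), RPL19B (2.47) and RPL14A (2.21) are highest at 6 h in the apex, while RPL7D (-0.52), RPL18aC (-0.34) and RPL19C (-0.18) lie below 0.

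Between 1 h and 6 h 3 genes were called in the apex. RPL13aC (1.18 ± 0.27), RPL14A (1.07 ± 0.23) and RPL10aC (1.06 ± 0.23) were called higher and 0 of the 40 lower, against 2.81% and 3.15% of all tested probe sets. The median of the 40 genes was 0.47, and 26 genes had both 6 h arrays above both 1 h arrays, as 23.6% of all tested probe sets did. The count of 3 fell to 0 without apex 1 h replicate 1, to 1 without apex 1 h replicate 2 or apex 6 h replicate 2, to 0 without the intensity trend and to 1 without both arrays that stood apart, and it was 5 without apex 6 h replicate 1.

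Later in the light most of these genes were lower again. On the mean of the 3 arrays from 24 to 72 h, 28 of the 40 genes were lower than at 6 h and 1 was higher, where 8.50% of all tested probe sets were lower and 10.3% higher. The median change was -0.95, against 0.13 over all tested probe sets. RPL13aC fell by 2.31 on the log2 scale (± 0.24, adjusted p = 4.9e-05), to signals of 264, 238 and 269, which are close to its 218 and 213 in the dark. RPL19B fell by 1.88 to 196, 183 and 220, and RPL14A fell by 1.76 to 164, 168 and 262. RPL26B (-1.61), RPL34A (-1.59) and RPL31B (-1.58) came next. With 1 array at each of these times, the spread was taken from the groups that had 2, and the arrays of 48 and 72 h held leaf primordia. None of the 3 late arrays was left out in any alternative. The count of 29 calls was 11 without apex 6 h replicate 2, also 11 without both arrays that stood apart, and 19 after quantile normalization, and 9 calls were kept under every alternative that was run.

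RPL7D was the gene called higher. Its signals were 338, 551 and 632 at 24, 48 and 72 h, and it was higher than at 6 h by 0.72 ± 0.22 (adjusted p = 0.031). RPL7A (0.41) and RPL19C (0.02) were also above 0 and were not called. The array of RPL7D at 24 h lay within the range of the 6 h arrays, and those at 48 and 72 h lay above every earlier apex array. The call was lost without apex 6 h replicate 1 (adjusted p = 0.20), after median centring (0.26) and without the intensity trend (0.089).

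Compared with the dark apex, the late arrays showed 2 genes higher and 0 lower, against 8.61% and 6.42% of all tested probe sets, a share near the background. The median change was 0.21, and 20 of the 40 genes had all 3 late arrays above both dark arrays, as 22.9% of all tested probe sets did. RPL10aC stayed up, at 486, 575 and 500 against 179 and 267 in the dark (1.25 ± 0.21, adjusted p = 0.0012), and this call was kept under every alternative that was run. RPL7A (AT1G80750) gave 207, 253 and 324 against 106 and 133, a change of 1.11 ± 0.28 (adjusted p = 0.0155). All 3 late arrays were above both dark arrays for each of these genes. The count was 1 without dark apex replicate 1 and 1 without replicate 2, in each case because the RPL7A call was lost, with adjusted p of 0.13 and 0.051, and it was 1 without the intensity trend (0.067). RPL31A had the lowest value, -0.40, and was not called.

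In the cotyledon 1 h of light brought no call. With limma 0 of the 40 genes were called in either direction, 1 had an unadjusted p under 0.05, and 1.51% and 0.674% of all tested probe sets were called higher and lower. The median of the 40 genes was -0.03, against -0.12 over all tested probe sets, and its sign varied between fits (-0.12 to 0.16). RPL4D had the highest value, 0.64 ± 0.31, with 1581 and 2130 in the dark and 3321 and 2447 at 1 h. RPL19C had the lowest, -0.58 ± 0.22, with 1085 and 1129 in the dark and 775 and 707 at 1 h. Both 1 h arrays lay outside the dark ones for these 2 genes, but neither passed. Of the 40 genes 5 lay above and 5 below in this way, against 15.7% and 27.7% of all tested probe sets.

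At 6 h 8 of the 40 genes were higher in the cotyledon and 0 lower, where 7.79% of all tested probe sets were higher and 7.73% lower. The median change was 0.59, against -0.08 over all tested probe sets. RPL10aC rose from 580 and 590 to 1445 and 1463 (1.31 ± 0.23, adjusted p = 0.0017), with replicates close together in both groups. RPL34A rose from 1389 and 1542 to 3326 and 3438 (1.21 ± 0.26, adjusted p = 0.0059). RPL19B rose by 1.33, RPL26B by 1.10, RPL6A by 1.01, RPL4D and RPL13aC each by 0.98, and RPL14A by 0.97. The 2 dark arrays of RPL19B differed widely, at 236 and 600, and its call was lost without cotyledon dark replicate 1 (adjusted p = 0.34). RPL18aC (-0.48), RPL19C (-0.19), RPL31A (0.06) and RPL13aD (0.07) were lowest and were not called. The count of 8 fell to 4 without cotyledon 6 h replicate 1, 2 without its replicate 2, 1 without cotyledon dark replicate 1 and 3 without the intensity trend, and it was 13 without either apex 6 h array, which enter through the shared spread. The call of RPL10aC was the only one of the 8 kept under every alternative that was run.

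In the dark the apex had lower signals than the cotyledon for 26 of the 40 genes and higher signals for 0, against 8.36% and 8.52% of all tested probe sets. The median difference, apex minus cotyledon, was -0.96, and over all tested probe sets it was 0.07. For 39 of the 40 genes both dark apex arrays lay below both dark cotyledon arrays, where 26.2% of all tested probe sets did so. RPL13aC gave 218 and 213 in the apex against 820 and 774 in the cotyledon (-1.89 ± 0.27, adjusted p = 0.00035). RPL14A gave 161 and 124 against 421 and 446 (-1.61 ± 0.23), and RPL10aC gave 179 and 267 against 580 and 590 (-1.42 ± 0.23). RPL19B had -1.50 ± 0.38, a call that was lost without dark apex replicate 2 (adjusted p = 0.14) or cotyledon dark replicate 2 (0.18). RPL7D was the only gene above 0, at 0.09, with 429 and 420 in the apex and 335 and 473 in the cotyledon, and was not called. The GAPDH ratio was 0.899 and 1.78 on the dark apex arrays and 4.72 and 2.60 on the dark cotyledon arrays. The actin ratio was 7.13 and 12.6 on the dark apex arrays and 7.15 and 6.71 on the dark cotyledon arrays. The part of these ratios in this result was not tested. The count of 26 was 11 and 13 without dark apex replicate 1 and 2, 13 and 8 without cotyledon dark replicate 1 and 2, 14 without the intensity trend and 17 without both arrays that stood apart. The calls of RPL7B, RPL10aC, RPL13aC, RPL14A and RPL28C were kept under every alternative that was run.

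At 6 h of light no gene was called between the tissues. With limma 0 of the 40 genes were called in either direction, 5 had an unadjusted p under 0.05, and 2.30% and 1.01% of all tested probe sets were called higher and lower in the apex. The median difference was -0.36. It was below 0 for 39 genes, and 20 genes had both apex arrays below both cotyledon arrays, as 20.2% of all tested probe sets did. RPL17A (-0.89 ± 0.28, adjusted p = 0.10) and RPL4A (-0.88 ± 0.28, adjusted p = 0.11) were lowest. RPL4A gave 1355 and 2262 in the apex against 3604 and 2883 in the cotyledon, with no overlap. The count was 2 when apex 6 h replicate 2 was left out, and also 2 when both arrays that stood apart were.

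The difference between tissues in the response itself was tested as an interaction, the signed log2 change in the apex minus that in the cotyledon. For the 1 h response 0 of the 40 genes were called with limma, and 16 had an unadjusted p under 0.05. Of all tested probe sets 0.263% were called with a difference above 0 and 0.757% with a difference below 0. The median of this difference was 0.72, against 0.12 over all tested probe sets. RPL14A came nearest, at 1.29 ± 0.33 (adjusted p = 0.092), and the count was 1 without apex 6 h replicate 1 or replicate 2. For the 6 h response 1 gene was called with a difference above 0 and 0 with a difference below 0. The shares of all tested probe sets were 1.25% and 1.44%, and 10 of the 40 genes had an unadjusted p under 0.05. The gene called was RPL13aC, whose change in the apex exceeded that in the cotyledon by 1.58 ± 0.38 (adjusted p = 0.043). Its cotyledon signals were 820 and 774 in the dark and 1545 and 1607 at 6 h, so both tissues ended at similar signals from different starts. The call was lost without apex 6 h replicate 2 (adjusted p = 0.11), without dark apex replicate 1 (0.094) or 2 (0.13), without any 1 cotyledon array (0.054 to 0.13), and without both arrays that stood apart (0.21), as well as after median centring (0.074), without the filter (0.050) and without the intensity trend (0.17). RPL7D had the lowest difference, -0.66 ± 0.33, and was not called.

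Paralogues of a family can be set against each other within an array, since their log2 difference does not depend on how the array was scaled. The 14 families with at least 2 measured genes gave 30 pairs, and each pair's difference was compared between dark and light arrays with a two-sided exact permutation test within tissue, with p-values adjusted over the 30 pairs. For 4 pairs the difference changed with light at an adjusted p under 0.05, and 8 had an unadjusted p under 0.05. The smallest p this design allows is 0.0015. These pairs share the arrays of the contrasts above, so they are a second reading of the same signals.

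RPL19B and RPL19C parted most. The log2 signal of RPL19B minus that of RPL19C was -2.59 and -2.89 in the dark apex, -1.44 and -1.13 at 1 h, -0.95 at 2 h and -0.41 and 0.22 at 6 h. It then returned to -1.69, -2.13 and -2.16 at 24, 48 and 72 h. In the cotyledon it was -2.20 and -0.91 in the dark, -0.99 and -0.81 at 1 h, and 0.24 and -0.32 at 6 h. The relation between these paralogues thus moved step by step with light time in the apex and partly back later, while the dark cotyledon arrays differed from each other. Over both tissues the light arrays exceeded the dark ones by 1.31 in this difference (exact permutation p = 0.0059, adjusted 0.044). This call was lost in 10 of 14 alternatives, while the calls of the other pairs that passed were each lost in 4 or 5 of 14.

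RPL10aC moved relative to RPL10aA and did not return. The difference RPL10aA minus RPL10aC was 2.39 and 2.11 in the dark apex, 1.38 and 1.78 at 1 h, 1.18 at 2 h, 1.01 and 0.67 at 6 h, and 1.05, 0.89 and 1.15 at 24, 48 and 72 h. Every light array lay below both dark ones. In the cotyledon it was 1.96 and 1.80 in the dark, 1.52 and 1.65 at 1 h and 0.75 and 0.68 at 6 h, again without overlap. The mean shift over both tissues was -0.92 (exact permutation p = 0.0015, the smallest possible, adjusted 0.022).

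RPL18aB and RPL18aC parted in both tissues. The difference RPL18aB minus RPL18aC was 0.61 and -0.01 in the dark apex, 1.13 and 1.22 at 1 h, 1.47 at 2 h, 1.60 and 1.89 at 6 h, and 1.29, 0.75 and 0.87 later. In the cotyledon it rose from 0.84 and 0.94 through 1.28 and 1.35 to 2.10 and 1.46. The shift was 0.82 (exact permutation p = 0.0015, adjusted 0.022). In the RPL4 family the difference RPL4A minus RPL4D was 0.70 and 0.51 in the dark apex and between -0.42 and 0.07 on all 8 light apex arrays. In the cotyledon it was 0.22 and -0.15 in the dark and between -0.37 and -0.05 in the light, so the groups overlapped there. The shift over both tissues was -0.54 (exact permutation p = 0.0030, adjusted 0.030). RPL31A against RPL31C (-0.57) and RPL10aA against RPL10aB (-0.43) came next, each with an adjusted p of 0.052. The count of 4 pairs fell to 0 without dark apex replicate 1, dark apex replicate 2 or cotyledon dark replicate 1, where fewer arrangements remain, and to 0 without both arrays that stood apart, and it was 7 without cotyledon 1 h replicate 1.

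**Figure D4:**
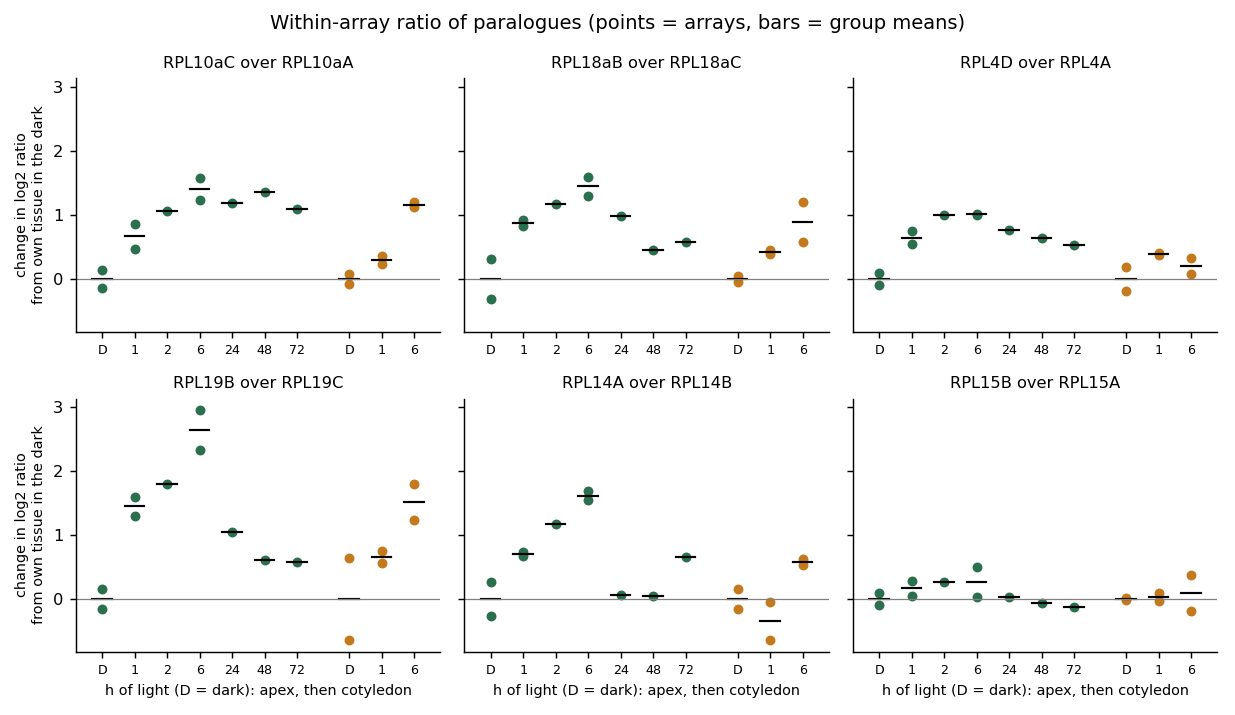
Change in the within-array log2 ratio of 6 paralogue pairs, relative to the mean of the dark arrays of the same tissue, against hours of light (D is dark), with 1 point per array, bars at group means, apex in green and cotyledon in orange. In the apex RPL19B over RPL19C reaches a mean of 2.65 at 6 h and averages 0.75 in late light, RPL14A over RPL14B reaches 1.62 and averages 0.25, RPL10aC over RPL10aA stays above both dark arrays at every light time, and RPL15B over RPL15A reaches 0.27.

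Other families parted at 6 h in the apex without passing this test, which weighs all light times together. The difference RPL7B minus RPL7D grew by 1.93, RPL14A minus RPL14B by 1.62 and RPL13aC minus RPL13aD by 1.52 between dark and 6 h. In late light they stood 0.12, 0.25 and 0.00 from their dark values. The families with the smallest gaps between their changes at 6 h were RPL17, with changes 0.06 apart, RPL7a (0.22), RPL15 (0.27), RPL28 (0.31) and RPL12 (0.50). Even so, RPL12A minus RPL12B went from 0.12 and 0.22 in the dark apex to -0.37 and -0.28 at 6 h, without overlap. Between tissues 0 of the 30 pairs differed in the exact permutation test within light times, 2 had an unadjusted p under 0.05, and the smallest adjusted p was 0.44. The smallest p that design allows is 0.0093.

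Other parts of the translation machinery were read beside the 60S genes from lists chosen with earlier results known, each described by its counts. Over all tested probe sets 12.3% were higher at 6 h and 5.69% at 1 h in the apex, 8.50% were lower in late light than at 6 h, and 8.36% were lower in the dark apex than in the dark cotyledon. Of the 45 tested genes for proteins of the small (40S) subunit, 26 were higher at 6 h in the apex and 0 lower, with a median of 0.99, and 10 were higher at 1 h. In the late light 26 of the 45 were lower than at 6 h, and 22 were lower in the dark apex than in the dark cotyledon. Of the 11 acidic and P0 proteins of the 60S stalk, 5 were higher at 6 h in the apex, among them AT4G00810 (1.88) and AT3G11250 (1.73). Of 24 listed assembly factors of the 60S subunit 10 were tested, with a median of 0.37. The 3 called higher were AT1G52930 (2.05), AT3G15460 (1.94) and AT2G40360 (1.13). Of 12 listed nucleolar factors for ribosomal RNA 5 were tested. At 6 h in the apex 3 were higher, AT4G22380 by 2.72, AT5G20160 by 2.24 and AT4G12600 by 1.59, and AT3G12860 and AT3G05060 were not called. Of 2 tested genes of the elongation factor eEF1B, AT5G12110 was not above the 35th percentile on any dark array of either tissue, and it reached 113 and 103 at 6 h in the apex and 178 and 106 in the cotyledon, at least 6.58-fold and at least 8.82-fold higher. The other, AT5G19510, gave 4228 and 4773 in the dark apex and 3138 and 3315 at 6 h (-0.48, not called), and RAPTOR1, of the TOR kinase complex, had -0.44 in the apex and was not called.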

How the data were processed

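The authors deposited linear MAS5 intensities (signals) for 16 ATH1 arrays, made with GCOS and MAS5 per the submitters' processing notes, versions not given in the sources used here. Each array had been scaled by the authors to a trimmed mean of 100.01, as its values show. Signals were log2-transformed with no pseudocount and no further scaling. Of 22810 probe sets, 64 controls were left out, and 18237 of the other 22746 were tested, having passed the 35th percentile of signal on 2 or more of 16 arrays. Probe sets were named from the array annotation through Entrez identifiers: 13513 matched 1 gene, 503 several and 8730 none. The program limma 3.58.1 (R 4.3.3) fitted 10 group means (eBayes with trend, 6 residual degrees of freedom), two-sided, with Benjamini-Hochberg adjustment over all tested probe sets. Late light is the mean of the 24, 48 and 72 h arrays. All members could be named; details go to the 6 highest and 4 lowest changes per contrast and the 8 pairs of smallest p. The members, lists and tests were chosen with earlier results of these data known. Scripts were tested on simulated data. The alternatives were 2 other scalings, 2 other filters, no variance trend, a replicate block and left-out arrays from groups with 2. The number of arrays limits the precision.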

Additional observations from a re-analysis of the deposited data

Results flagged for a closer look

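The change of RPL13aC by 6 h of light was called different between the tissues, as 1 of the 40 genes, where 1.25% of all tested probe sets were called in this direction. The limma interaction gave a difference of 1.58 on the log2 scale, apex minus cotyledon, with an adjusted p of 0.043. The call was lost in 13 of 19 alternatives.

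For RPL13aD and RPL31C both apex arrays at 1 h lay above both dark apex arrays while both cotyledon arrays at 1 h lay below both dark cotyledon arrays. Taken singly, the first held for 34 of the 40 genes and 28.3% of all tested probe sets. The second held for 5 of the 40 genes and 27.7% of all tested probe sets. The share of all probe sets with both was not computed. The difference between the responses was 0.62 for RPL13aD and 0.94 for RPL31C, and neither passed the limma interaction test (adjusted p = 0.57 and 0.32).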

How the results depend on the processing

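No call changed its direction in any alternative that was run. The sign of the median of the 40 genes varied for cotyledon 1 h. Quantile normalization gave 17 genes for apex 1 h, 19 for late light against 6 h, 1 for the tissue difference at 1 h and 2 at 6 h. Median centring gave 7 for apex 1 h and 0 for the tissue difference at 6 h, and it moved the median over all tested probe sets from 0.13 to -0.13 for late light against 6 h, from -0.07 to 0.07 for apex 6 h, from 0.07 to -0.13 for the dark tissues and from 0.02 to -0.10 for late light against dark. Testing every probe set without a filter gave 0 for the tissue difference at 6 h. Without the intensity trend the counts were 2 for apex 1 h, 0 for apex 6 h against 1 h, 1 for late light against dark, 3 for cotyledon 6 h, 14 for the dark tissues and 0 for the tissue difference at 6 h. Without both arrays that stood apart they were 5 for apex 1 h, 13 for apex 6 h, 1 for apex 6 h against 1 h, 11 for late light against 6 h, 17 for the dark tissues, 2 for the tissues at 6 h, 0 for the tissue difference at 6 h and 0 of 30 pairs, with 6 at an unadjusted p under 0.05. Leaving out each array in turn gave 0 to 15 genes for apex 1 h, 21 to 30 for apex 6 h, 0 to 5 for apex 6 h against 1 h, 1 to 2 for late light against dark, 11 to 28 for late light against 6 h, 0 to 0 for cotyledon 1 h, 1 to 13 for cotyledon 6 h, 8 to 30 for the dark tissues, 0 to 2 for the tissues at 6 h, 0 to 1 for each tissue difference, 0 to 7 pairs for light and 0 to 0 pairs for tissue. The cause of these shifts was not tested. With the replicate number as a block the counts were 12 for apex 1 h, 29 for apex 6 h, 4 for apex 6 h against 1 h, 23 for late light against 6 h, 24 for the dark tissues and 8 for cotyledon 6 h, none over 1.5 times from the unblocked count. Arrays of the same number correlated between -0.128 and 0.125 in their deviations, which cannot decide whether the numbers pair the samples. In the apex replicate 2 had the higher GAPDH and actin ratio in the dark, at 1 h and at 6 h. All late arrays were numbered replicate 1, and the part of the replicate number in the late results was not tested. Averaging several probe sets of a gene was not run, as each gene had 1.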

Other observations

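The 2 probe sets shared between paralogues gave signals that cannot be assigned to 1 gene. The RPL32A and RPL32B probe set gave 1683 and 1654 in the dark apex, 3212 and 4798 at 6 h, and 1528, 1328 and 1709 at 24, 48 and 72 h, and in the cotyledon 3766 and 3447 in the dark and 5099 and 4531 at 6 h. The RPL6B and RPL6C probe set gave 1768 and 1165 in the dark apex, 853 and 1388 at 6 h and 820, 1231 and 1770 later. In the cotyledon that probe set gave 1929 and 2057 in the dark and 1711 and 1293 at 6 h, so both 6 h arrays were below both dark arrays there, while in the apex the groups overlapped.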
